A study of Mus musculus with 8 samples.

Results

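Endothelial junction and adhesion genes encode the proteins that hold the lining cells of blood vessels together and let blood cells attach to them. The 10 genes described here were Cdh5, Pecam1, Cldn5, Icam2, Esam, Jam2, Jam3, F11r, Tjp1 and Mcam, of 18194 genes on the arrays. Each gene was read from a probe set that maps to it alone, and where it had several, the probe set was chosen by the highest mean signal over the 8 arrays, so the level of a gene is a description and carries no test. Changes were tested only for the 8 genes whose mean signal passed the 40th percentile of all genes, a mean of 67.88. Mcam lay nearest above it, with a mean of 119.8, and Pecam1 nearest below, with 28.1. Pecam1 and Jam2 were not tested.

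RNA of whole yolk sacs at embryonic day 9.5 (E9.5) was measured in 4 groups of 2 arrays. EC-N1ICD yolk sacs came from embryos of genotype Tie2 Tg/0; ROSA +/N1ICD, in which the Tie2-Cre transgene switches on the intracellular domain of Notch1, a form of the receptor that signals without ligand. Their wild type was Tie2 0/0; ROSA +/+, and this set is of strain C57BL6. EC-Rbpj-KO yolk sacs were Tie2-Cre; Rbpj flox/flox, in which Cre removes the exons for the DNA-binding domain of RBPJ, the nuclear partner of all Notch receptors. Their wild type has no genotype in the labels, and this set is of mixed strain. Tie2-Cre acts in the endothelial and the hematopoietic lineages, so blood cells carry the alleles too. Nothing in the labels says outright that the 2 arrays of a group came from different embryos. The EC-Rbpj-KO arrays differed in the sex of their transcripts and so held different embryos, while in the other groups the spread behind the p-values may be technical.

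As background, endothelial cells are joined by adherens junctions, built on VE-cadherin, and by tight junctions, built on claudins and junctional adhesion molecules (JAMs). Inside the cell, catenins and the ZO scaffolds tie both to the actin skeleton. The same cells carry adhesion molecules that bind integrins of passing leukocytes. In the yolk sac a primitive network of such cells is remodelled into larger and smaller vessels, beside a visceral endoderm epithelium that has tight and adherens junctions of its own.

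The deleted gene itself behaved as labelled. Rbpj gave 470 and 497 in EC-Rbpj-KO, versus 984 and 919 in its wild type, a log2 fold change of -0.98 (adjusted p = 0.00866 from limma). Hey1, a Notch target, gave 66 and 69 there, versus 72 and 70 in wild type. Its log2 fold change was -0.073 and did not pass (adjusted p = 0.906 from limma). In EC-N1ICD Hey1 had 319 and 298, versus 147 and 103 in wild type. It rose there, at a log2 fold change of 1.33 (adjusted p = 0.0364 from limma). Heyl, another Notch target, lay below the filter. The other endothelial markers were present, with summed signals of 13 tested and 1 untested gene from 2936 to 6608 per array. Both EC-N1ICD arrays and EC-Rbpj-KO replicate 1 carried female transcripts (Xist), and the other 5 arrays carried male transcripts (Eif2s3y), so sex and genotype cannot be told apart in the EC-N1ICD set. The 3' to 5' ratio of Actb, a sign of RNA quality, was between 1.72 and 2.34, and that of Gapdh between 2.43 and 4.64, with the top value on EC-Rbpj-KO replicate 1. The arrays hold bulk tissue, in which fewer cells of a type and less RNA per cell cannot be told apart.

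Promoters are shown for a pair of tight junction genes, since in EC-Rbpj-KO Cldn5 had the largest change of the 8 tested genes and F11r the smallest. RefSeq promoters were at hand for 4 of the 10 genes (Cldn5, F11r, Tjp1 and Mcam), each from 250 bases before to 50 bases after the transcription start, on build GRCm38.p6. Cldn5 lies at chr16:18776597-18776896 on the plus strand and F11r at chr1:171437311-171437610 on the plus strand. Capitals mark TGGGAA, the inner letters of the RBPJ core motif GTGGGAA, read on either strand.
Cldn5 promoter: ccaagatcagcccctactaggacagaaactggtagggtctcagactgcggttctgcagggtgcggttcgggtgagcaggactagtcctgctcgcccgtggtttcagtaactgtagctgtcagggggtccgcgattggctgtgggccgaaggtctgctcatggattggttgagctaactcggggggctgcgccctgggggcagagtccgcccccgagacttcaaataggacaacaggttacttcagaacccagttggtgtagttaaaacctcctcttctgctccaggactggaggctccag
F11r promoter: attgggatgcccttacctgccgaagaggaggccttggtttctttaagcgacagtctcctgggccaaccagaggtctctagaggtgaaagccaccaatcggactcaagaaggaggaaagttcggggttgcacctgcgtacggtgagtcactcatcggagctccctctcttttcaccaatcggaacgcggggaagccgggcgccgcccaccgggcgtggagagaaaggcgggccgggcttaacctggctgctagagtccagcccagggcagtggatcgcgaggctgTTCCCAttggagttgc

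The full core GTGGGAA was not found on either strand of any of these 4 windows, and it was found in 6.38% of 32851 promoters of the same length. The shorter TGGGAA, contained in the full core, was found once, on the minus strand of F11r behind its start, and in 25.6% of all promoters. The ETS core GGAA, which TGGGAA also contains, was found in 96% of all promoters, 4 times in F11r, 3 times each in Tjp1 and Mcam, and not in the Cldn5 window. The longer ETS forms CAGGAAG and CCGGAAG, in 13.3% and 8.86% of all promoters, were not found in these 4 windows. These counts describe letters in short windows and were compared with no measurement of binding.

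**Figure D1:**
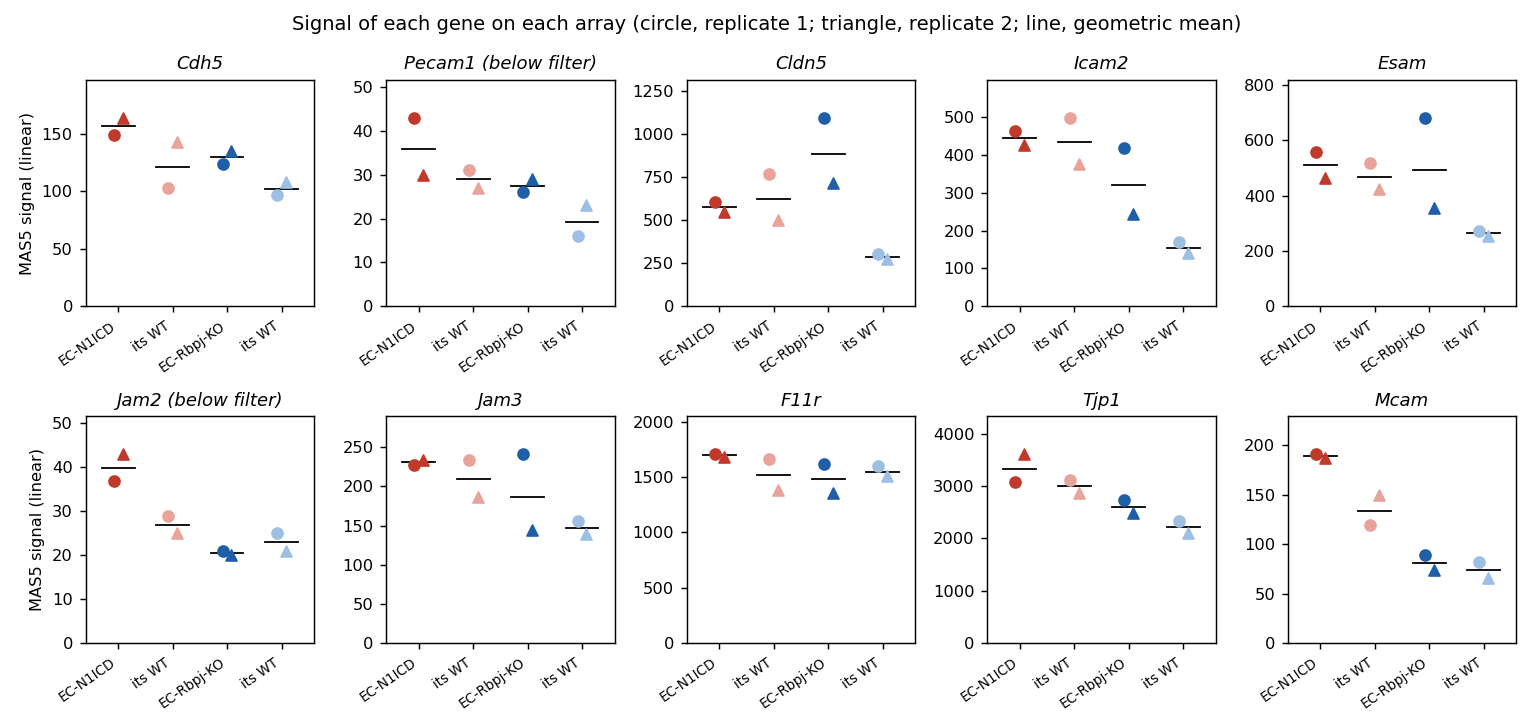
Signal of each gene on each array (linear MAS5 signal, an own axis from 0 for each gene), with EC-N1ICD and EC-Rbpj-KO each left of its wild type; circles are replicate 1, triangles replicate 2 and lines geometric means. Cldn5 had 1095 and 715 in EC-Rbpj-KO, versus 302 and 273 in its wild type, while the arrays of the EC-N1ICD set overlapped.

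Of the endothelial tight junction genes Cldn5, and of the leukocyte adhesion molecules Icam2, rose in EC-Rbpj-KO yolk sacs, and no gene described here passed the test in EC-N1ICD yolk sacs. In EC-Rbpj-KO, 2 of 8 tested genes passed, both as higher (Cldn5 3.08-fold, Icam2 2.06-fold). In this comparison 4.96% of all 10913 tested genes passed in either direction, 218 as higher and 323 as lower, and 3 of the 8 genes had an unadjusted p under 0.05, as 19.9% of all tested genes did. With centred arrays the split was 375 higher and 300 lower. Esam, the third of these, was 1.87-fold its wild type with an adjusted p of 0.0793 from limma. In EC-N1ICD, 0 of 8 genes passed limma's test where 0.596% of all tested genes passed, and 0 had an unadjusted p under 0.05, where 12.0% of all tested genes did.

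Cldn5 encodes claudin-5, the claudin that seals endothelial tight junctions (probe set 1417839_at). The gene gave 1095 and 715 in EC-Rbpj-KO, versus 302 and 273 in wild type. Both mutant arrays lay far above both wild type arrays, and replicate 1 was the higher. The log2 fold change was 1.62 (standard error 0.24, 95% interval 1.10 to 2.15, adjusted p = 0.00369 from limma). In EC-N1ICD its signals were 606 and 547, versus 765 and 502 in wild type. The mutant arrays lay between the wild type arrays, and the log2 fold change was -0.11 (95% interval of the fold 0.644 to 1.34, adjusted p = 0.922). With embryo sex in the fit it was -0.72 (adjusted p = 0.434). That fit takes its sex effect from the gap between the 2 EC-Rbpj-KO arrays alone, since sex and genotype coincide in the EC-N1ICD set. Geometric means were 885 in EC-Rbpj-KO, versus 287 in its wild type, and 576 in EC-N1ICD, versus 620 in its wild type. EC-Rbpj-KO was thus the highest of the 4 groups and its wild type the lowest, and EC-Rbpj-KO replicate 2 lay within the range of the other set's wild type.

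Tjp1 encodes ZO-1, a scaffold that links claudins and JAMs to actin and is also made by epithelia (probe set 1417749_a_at). It gave 2727 and 2478 in EC-Rbpj-KO, versus 2338 and 2094 in wild type. The groups did not overlap, yet the change was only 1.17-fold (log2 0.23, adjusted p = 0.364 from limma). In EC-N1ICD it had 3078 and 3606, versus 3122 and 2873 in wild type, an overlap at a log2 fold change of 0.15 (adjusted p = 0.747).

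The JAM family members differ in where they are known to be made. F11r (JAM-A, also of epithelia and platelets, probe set 1424595_at) gave 1618 and 1360 in EC-Rbpj-KO, versus 1597 and 1507 in wild type. In EC-N1ICD it had 1708 and 1686, versus 1668 and 1388 in wild type. Its log2 fold changes of -0.065 in EC-Rbpj-KO and 0.16 in EC-N1ICD did not pass (adjusted p = 0.855 and 0.778 from limma), with 95% intervals of the fold from 0.759 to 1.21 in EC-Rbpj-KO and from 0.885 to 1.41 in EC-N1ICD.

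Jam3 (JAM-C, probe set 1423503_at) had 241 and 144 in EC-Rbpj-KO, versus 156 and 139 in wild type. Replicate 1 alone was above wild type, at a log2 fold change of 0.34 (adjusted p = 0.493 from limma). In EC-N1ICD it had 227 and 234, versus 233 and 187, an overlap at 1.10-fold. Jam2 (JAM-B, probe set 1419288_at) lay under the array median on each of the 8 arrays. It gave 21 and 20 in EC-Rbpj-KO, versus 25 and 21 in wild type, and 37 and 43 in EC-N1ICD, versus 29 and 25 in wild type. Signals this low were not tested, and the last 2 groups did not overlap.

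Esam is an adhesion molecule of the same immunoglobulin family, found at endothelial tight junctions and on platelets (probe set 1460356_at). It gave 683 and 356 in EC-Rbpj-KO, versus 273 and 255 in wild type. Both mutant arrays were above both wild type arrays, but replicate 1 was far above replicate 2. The log2 fold change was 0.90 (standard error 0.27, 95% interval 0.32 to 1.49) and did not pass. In EC-N1ICD it had 559 and 466, versus 520 and 423, an overlap at a log2 fold change of 0.12 (adjusted p = 0.919 from limma).

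Icam2 is an adhesion molecule that resting endothelium displays, a ligand of the leukocyte integrin LFA-1 (probe set 1448862_at). It gave 417 and 244 in EC-Rbpj-KO, versus 170 and 141 in wild type. The groups did not overlap, at a log2 fold change of 1.04 (standard error 0.26, 95% interval 0.49 to 1.60, adjusted p = 0.0397 from limma). In EC-N1ICD the signals were 462 and 425, versus 498 and 375 in wild type. These overlapped, at a log2 fold change of 0.036 (95% interval of the fold 0.696 to 1.51, adjusted p = 0.981). Replicate 1 was the higher EC-Rbpj-KO array for Cldn5, Icam2, Esam and Jam3, and was also the 1 array of its set with female transcripts, the one whose sample name opens with another number, and the one with the highest Gapdh ratio. Without it the log2 fold changes were 1.32 for Cldn5 (adjusted p = 0.0186 from limma), 0.66 for Icam2 (adjusted p = 0.141) and 0.43 for Esam (adjusted p = 0.283). Without replicate 2 they were 1.93, 1.43 and 1.37, and all passed. Icam2 lost its call when any of the other 7 arrays was left out, with adjusted p-values up to 0.249.

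**Figure D2:**
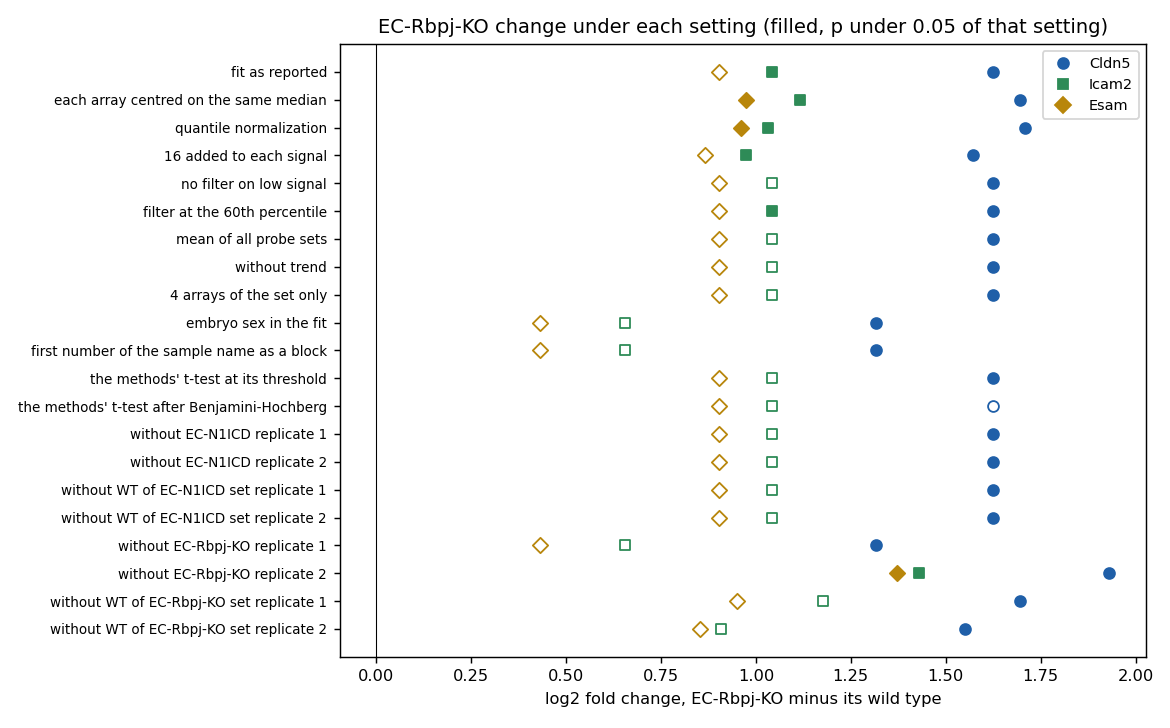
Change of Cldn5, Icam2 and Esam in EC-Rbpj-KO over its wild type (log2 fold change, x axis). Rows are the fit as reported and 20 other settings, and filled symbols passed the threshold of that setting. The block on the first number of the sample names, embryo sex in the fit and leaving out EC-Rbpj-KO replicate 1 gave the same value for each gene. Cldn5 passed in all settings but the methods' t-test after Benjamini-Hochberg adjustment, at 1.32 to 1.93, while Icam2 lost its call in 15 of 20 and Esam gained one in 3.

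Cdh5, the gene of VE-cadherin (probe set 1433956_at), gave 124 and 135 in EC-Rbpj-KO, versus 97 and 108 in wild type. In EC-N1ICD it had 149 and 164, versus 103 and 143. Neither pair of groups overlapped and all mutant arrays were higher, but the log2 fold changes of 0.34 and 0.37 did not pass (adjusted p = 0.461 and 0.619 from limma). Pecam1, an immunoglobulin family molecule of endothelial contacts that platelets and leukocytes share (probe set 1421287_a_at), lay under the array median on each of the 8 arrays. It had 26 and 29 in EC-Rbpj-KO, versus 16 and 23 in wild type, and 43 and 30 in EC-N1ICD, versus 31 and 27. Its ratios of 1.43 in EC-Rbpj-KO and 1.24 for EC-N1ICD were not tested.

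Mcam (CD146, of endothelium and of mural cells, probe set 1416357_a_at) had the largest change in EC-N1ICD of the 8 tested genes. It had 191 and 187 in EC-N1ICD, versus 119 and 150 in wild type. The groups did not overlap, at a log2 fold change of 0.50 (standard error 0.25, 95% interval -0.039 to 1.04, adjusted p = 0.462 from limma). In EC-Rbpj-KO it had 89 and 74, versus 82 and 66, an overlap at 1.10-fold. Smooth muscle and mural markers moved in EC-N1ICD too. Of their 6 tested genes 2 rose there (Tagln and Myl9) with a median log2 fold change of 0.83, and the 9 signals summed to 19814 and 18678 in EC-N1ICD, versus 9717 and 11126 in wild type. Acta2 made up most of these sums, at 14640 and 13687 versus 7480 and 8684, and did not pass, while Myh11 was not tested and gave 33 and 72 versus 103 and 108. Myl9 lost its call in 12 of 20 other settings and Tagln in 3, both of them with embryo sex in the fit. Their part in the value of Mcam was not tested.

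**Figure D3:**
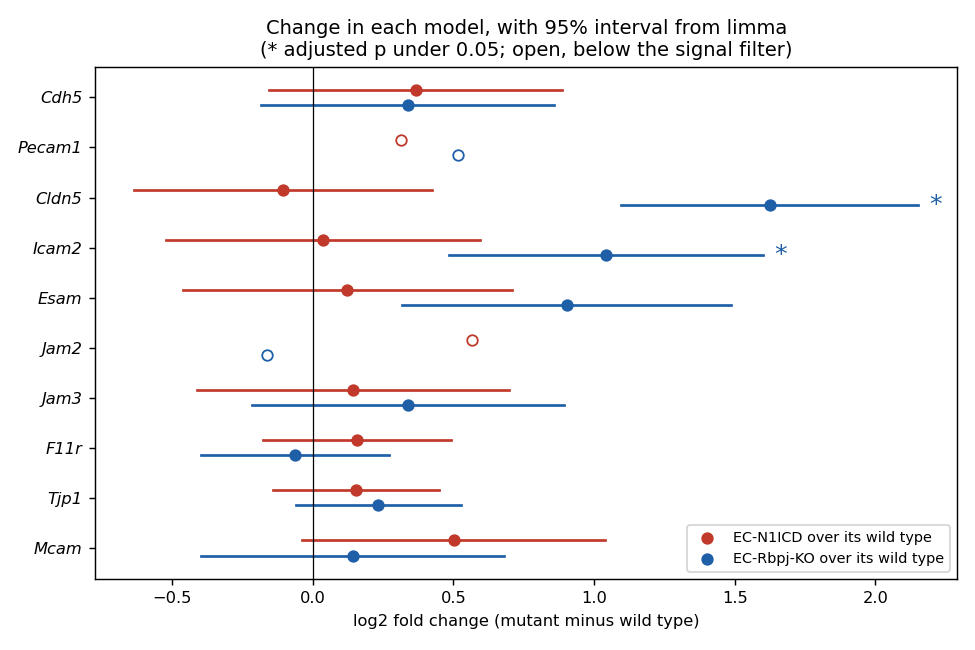
Log2 fold change of each gene in EC-N1ICD (red, upper) and EC-Rbpj-KO (blue, lower), each over its wild type, with the 95% interval from limma; open points are the 2 untested genes and stars mark an adjusted p under 0.05. Only Cldn5 and Icam2 in EC-Rbpj-KO carry a star, and all 8 intervals in EC-N1ICD include 0.

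Arrays that did not overlap were common. In EC-N1ICD, 3 of 8 tested genes had both mutant arrays above both wild type arrays (Cdh5, F11r and Mcam), none had both below, and 5 overlapped. Over all tested genes 23.7% were higher without overlap. In EC-Rbpj-KO, 5 of 8 were higher without overlap (Cldn5, Icam2, Esam, Cdh5 and Tjp1), where 23.3% of all tested genes were. The median log2 fold change of the 8 genes was 0.15 in EC-N1ICD, against 0.013 over all tested genes, and 0.34 in EC-Rbpj-KO, against -0.024.

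Whether a gene responded differently in the 2 models was tested as the change in EC-N1ICD minus the change in EC-Rbpj-KO, which share no arrays. None of the 8 genes passed, where 0.266% of all tested genes did, and 2 had an unadjusted p under 0.05, where 10.8% of all tested genes did. Cldn5 had the largest difference, -1.73 on the log2 scale (standard error 0.34, adjusted p = 0.0735 from limma), followed by Icam2 with -1.01 (adjusted p = 0.332) and Esam with -0.78 (adjusted p = 0.497). For Cldn5 this difference passed with arrays centred on the same median or quantile normalized, and with embryo sex in the fit. The sex fit gave -2.04, the same value as without EC-Rbpj-KO replicate 2. Its sex term is the gap between the 2 EC-Rbpj-KO arrays, so these settings are not separate checks. The other 5 had adjusted p-values of 0.766 or more.

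The wild type yolk sacs of the 2 sets had different signals for most of these genes. The geometric mean in the wild type of EC-N1ICD was 2.79-fold that in the wild type of EC-Rbpj-KO for Icam2, 2.16-fold for Cldn5, 1.82-fold for Mcam and 1.78-fold for Esam, and 0.981-fold for F11r. Icam2 in EC-Rbpj-KO, at a geometric mean of 319, therefore stayed below the 432 of the other set's wild type, and Esam, at 493, was near its 469. The genes described here were not alone in this. Summed signals of the other endothelial markers were 6608 and 4771 in the wild type of EC-N1ICD, versus 3251 and 3070 in that of EC-Rbpj-KO. These values carry no test. Strain, cross, genotype of the wild type and a last number in the sample names, unexplained in the labels and different for each set, cannot be told apart between sets, and the same holds for the difference between models.

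To show whether a gene moved with or apart from the rest of the endothelium on the same array, its log2 signal was set against the mean of 13 other endothelial markers (such as Kdr, Tek and Erg). That mean itself was 0.52 and 0.064 above wild type on the EC-Rbpj-KO arrays, higher on replicate 1, and -0.11 and -0.24 against wild type on the EC-N1ICD arrays. Relative to it, Cldn5 was still 1.41 and 1.25 above its wild type mean on the EC-Rbpj-KO arrays (2.52-fold), Icam2 0.91 and 0.59 (1.68-fold) and Esam 0.85 and 0.37 (1.53-fold). All these values lay above both wild type arrays, and the replicates of Cldn5 lay closer together than in its signals. Cdh5 averaged 0.046, but replicate 1 was at -0.24 and replicate 2 at 0.34, further apart than in its signals. Jam3 averaged 0.047, from 0.19 and -0.096, and Tjp1 averaged -0.059, from -0.22 and 0.099. Mcam averaged -0.15 and F11r -0.36, each with both replicates negative. All of these are plain differences with no test. With Kdr, Tek and Tie1 alone as the comparison in EC-Rbpj-KO, Cldn5 was at 1.63, Icam2 at 1.05 and Esam at 0.91. The other tested genes were higher against it too, with Cdh5 and Jam3 at 0.35, Tjp1 at 0.24, Mcam at 0.15 and F11r at -0.055. Relative values therefore depended on the markers chosen. In EC-N1ICD the largest relative value of a tested gene was that of Mcam, 0.63 and 0.73 (untested Jam2 was at 0.57 and 0.92), while Cldn5 was at 0.077 and 0.061.

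**Figure D4:**
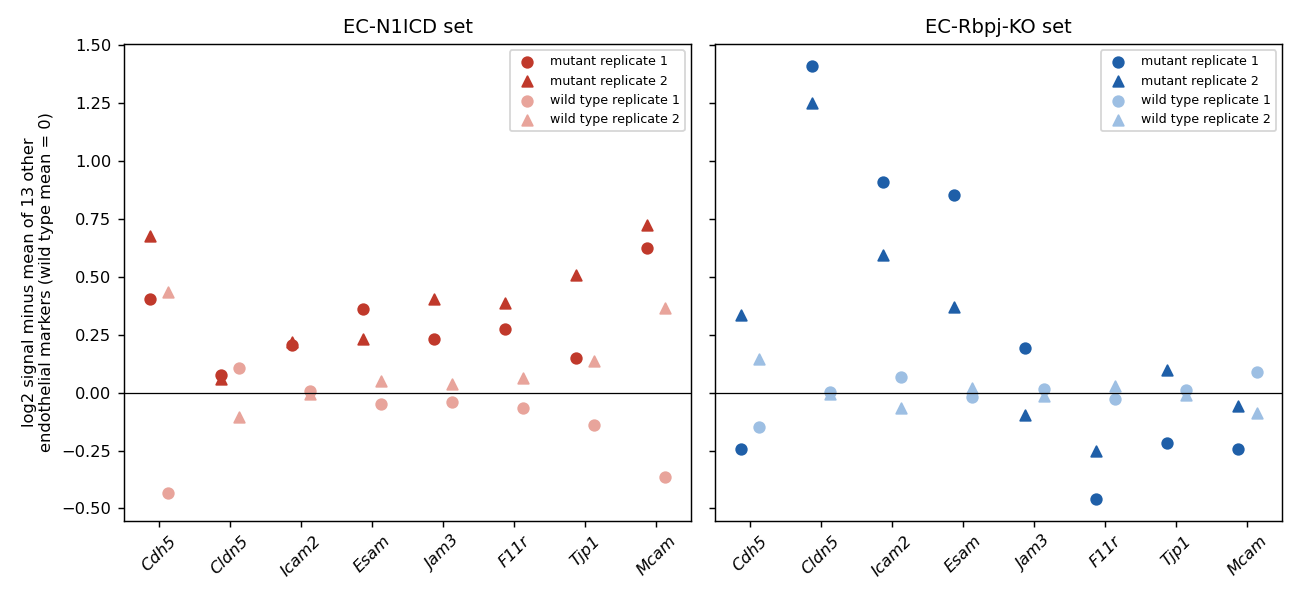
Log2 signal of the 8 tested genes minus the mean of 13 other endothelial markers of the same array, centred on the wild type mean of each set (y axis); dark symbols are mutant and pale symbols wild type arrays. Cldn5, Icam2 and Esam stood above both wild type arrays in EC-Rbpj-KO, by 1.33, 0.75 and 0.61 on average.

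Other probe sets of these genes gave little check. Of the 10 genes, 6 have a single probe set (Pecam1, Cldn5, Icam2, Esam, Tjp1 and Mcam), so the rises of Cldn5 and Icam2 rest on 1 probe set each. The second probe set of Cdh5 had a mean signal of 21 and a log2 ratio of 0.024 in EC-N1ICD, and of -0.022 for EC-Rbpj-KO. That of Jam3 had a mean of 22.6 and ratios of -0.42 and -0.23, and that of F11r a mean of 39.3 and ratios of 0.25 and 0.40. The 4 other probe sets of Jam2 had means of 14.3 to 15.6. The second probe sets of Cdh5 and Jam3 were below the array median on all 8 arrays and that of F11r was above it on 2.

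The counts for other genes of the same structures stand against 4.96% of all tested genes in EC-Rbpj-KO and 0.596% in EC-N1ICD. Of 18 tested other tight junction genes, 1 rose in EC-Rbpj-KO and none in EC-N1ICD, with medians of -0.053 and 0.090 on the log2 scale. The gene that rose was Cldn1, a claudin of epithelia, with 1694 and 944 in EC-Rbpj-KO, versus 599 and 410 in wild type (log2 fold change 1.35, adjusted p = 0.0193 from limma). Without EC-Rbpj-KO replicate 1 it no longer passed, at 0.93 (adjusted p = 0.0785), nor without the second wild type array, at 1.08 (adjusted p = 0.177), nor with the mean of all its probe sets, at 0.56 (adjusted p = 0.0704). Ocln, Cgn and the claudins Cldn2, Cldn6 and Cldn7 did not pass in either model.

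Of 15 tested adherens junction genes, 1 fell in EC-Rbpj-KO and none passed in EC-N1ICD. Amot, a scaffold of endothelial and epithelial junctions, gave 2831 and 2887 in EC-Rbpj-KO, versus 5311 and 6304 in wild type (log2 fold change -1.02, adjusted p = 0.00192 from limma). With the mean of all its probe sets it no longer passed, at -0.62 (adjusted p = 0.0894). The catenins that bind VE-cadherin, Ctnnb1, Ctnna1, Ctnnd1 and Jup, and the phosphatase Ptprb did not pass in either model.

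Of 14 tested regulators of these junctions, 1 rose in EC-Rbpj-KO and none passed in EC-N1ICD. Fgd5, an exchange factor for small GTPases in endothelium, gave 286 and 234 in EC-Rbpj-KO, versus 156 and 106 in wild type (log2 fold change 1.01, adjusted p = 0.0326 from limma). It did not pass without EC-Rbpj-KO replicate 1, at 0.86 (adjusted p = 0.101), without the second wild type array, at 0.73 (adjusted p = 0.275), or without either EC-N1ICD array. Of 9 tested leukocyte adhesion genes and counter-receptors, 1 rose in EC-N1ICD and none passed in EC-Rbpj-KO. Itga4, the integrin subunit that binds Vcam1, had 196 and 215 in EC-N1ICD, versus 84 and 62 in wild type (log2 fold change 1.51, adjusted p = 0.0468 from limma). It lost the call when any 1 array of its set was left out, with adjusted p-values up to 0.311, and with the mean of all its probe sets, at 0.78. The subunits Itgal and Itgb2 of LFA-1, the receptor for Icam2, lay below the filter.

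Among the 13 tested other endothelial markers, 1 rose in EC-Rbpj-KO and none passed in EC-N1ICD. Cd93, a lectin-like receptor of endothelium and of some blood cells, had 533 and 390 in EC-Rbpj-KO, versus 150 and 182 in wild type (log2 fold change 1.46, adjusted p = 0.00815 from limma). The median of the list was 0.41 in EC-Rbpj-KO and -0.19 in EC-N1ICD, and Cd93 is 1 of the genes in the mean used above. Without the first wild type array Cd93 was at 1.32 (adjusted p = 0.0624), and with the mean of all its probe sets at 0.73 (adjusted p = 0.131). In EC-Rbpj-KO 10 of the 13 markers had a positive log2 fold change. Erg, an ETS factor of endothelium, was at 1.96-fold (adjusted p = 0.051 from limma), Tie1 at 1.59-fold and Adgrl4 at 1.53-fold, while Kdr, the main VEGF receptor, was at 1.02-fold (adjusted p = 0.975) and Tek, the angiopoietin receptor, at 0.604-fold (adjusted p = 0.103).

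**Figure D5:**
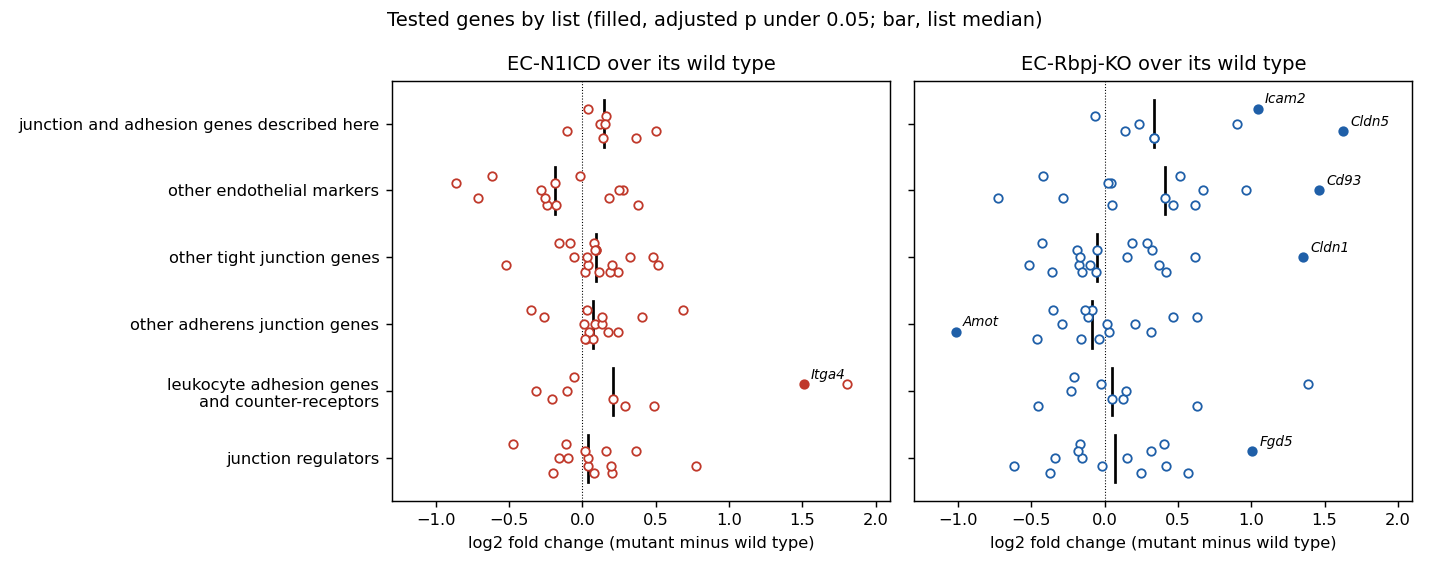
Log2 fold change (x axis) of every tested gene of the junction and adhesion lists (rows), for EC-N1ICD (left) and EC-Rbpj-KO (right), each over its wild type; filled points passed an adjusted p of 0.05 and bars are list medians. In EC-Rbpj-KO the genes described here had a median of 0.34, the other endothelial markers one of 0.41 and the other tight junction genes one of -0.053.

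Blood cells carry several of these molecules, and their markers moved as well. Of 10 tested macrophage markers, 4 rose in EC-Rbpj-KO (Csf1r, Cx3cr1, Ly86 and Adgre1) and 2 fell (Cd68 and Fcgr3), and the 12 signals summed to 4890 and 3634, versus 3334 and 2845 in wild type. Csf1r was the largest part of the mutant sums, at 2497 and 1935 versus 965 and 599. Fcgr3 went the other way, at 293 and 338 versus 1322 and 1366, so the sums do not stand for the whole list. Under other settings Adgre1 lost its call in 13 of 19 and Cd68 in 14 of 19, Csf1r in 2 of 20, and Cx3cr1, Ly86 and Fcgr3 in 1 each. None of 7 tested megakaryocyte markers passed there, with sums of 2133 and 1538, versus 2107 and 1787. In EC-N1ICD, 1 macrophage marker rose (Ly86), 1 megakaryocyte marker fell (Pf4), and erythroid markers had a median of -1.21 with 1 of 10 passing (Tfrc). The 11 erythroid signals there summed to 48577 and 82864, versus 95776 and 101682 in wild type, with replicate 1 the lower. In EC-Rbpj-KO the erythroid markers had a median of -0.47, with 1 of 10 passing (Tfrc). In EC-N1ICD these calls were lost under other settings in 7 of 19 for Ly86, 8 of 20 for Pf4 and 9 of 20 for Tfrc. Of 13 visceral endoderm markers 1 fell in EC-Rbpj-KO (Cubn, lost in 15 of 20 other settings) and none passed in EC-N1ICD, with sums of 204981 to 234607 on all arrays. No marker was listed at 0, the lowest signal of any probe set being 7, and the part of these cells in the values of Cldn5, Icam2 and Esam was not tested.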

How the data were processed

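Whole yolk sac RNA was hybridised to 8 single-channel Affymetrix mouse arrays. The intensity values were summarised to 1 linear signal per probe set by the authors before deposit, with MAS5 per the labels (settings not given in the sources used here), and run from 7 to 36554. The log2 of each signal entered a linear model in limma 3.58.1 under R 4.3.3 (lmFit, 4 groups of 2 in 1 fit, contrasts, eBayes with trend; 4 residual and 7.37 prior degrees of freedom). Tests were two-sided, with Benjamini-Hochberg adjustment over 10913 genes above the 40th percentile and a threshold of 0.05. Ratios of untested genes are plain differences of log2 signals. An exact test of 2 arrays against 2 cannot go below 0.333 and was not used. MAS5 scales each array as a whole, and its background treatment affects low signals most.

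Of 45101 probe sets, 34958 name 1 gene in the array annotation and 10143 name several or none and were left out. Genes named are the 10 described, and of the other lists those that passed in either model. Rac1, the genes given as not passing and the reference genes were added after their values were seen. The genes and lists were chosen with earlier results of these data known. Some genes of the lists were not analysed here. Alternatives were other scalings, filters, probe set summaries, variance models, embryo sex, the methods' t-test, a block on the first number in the sample names (added after seeing the data) and leaving out each array. Only the limma fit for EC-Rbpj-KO was tested on simulated data, with independent normal noise for each gene. The number of arrays limits the precision.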

Additional observations from a re-analysis of the deposited data

Results flagged for a closer look

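No gene of the 10 differed between models past the threshold, but 2 genes of the surrounding lists did. For Amot, the angiomotin scaffold, the change in EC-N1ICD minus that in EC-Rbpj-KO was 1.26 on the log2 scale (adjusted p = 0.0241 from limma). In EC-N1ICD it gave 5403 and 4518, versus 4428 and 3948 in wild type. In EC-Rbpj-KO it gave 2831 and 2887, versus 5311 and 6304 in wild type. For Rac1, a GTPase of the actin skeleton, the difference was 1.39 (adjusted p = 0.0462 from limma). In EC-N1ICD it gave 6824 and 6825, versus 3320 and 4806 in wild type. In EC-Rbpj-KO it gave 3822 and 4314, versus 5455 and 7143 in wild type. Rac1 passed in neither model alone (adjusted p = 0.0761 for EC-N1ICD, 0.0652 for EC-Rbpj-KO), and with other settings the call was lost in 11 of 17 for Rac1 and 7 of 17 for Amot.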

How the results depend on the processing

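No paired analysis was possible because no number pairs 1 mutant with 1 wild type sample. The first number in the sample names is shared by replicate 2 of each mutant and both of its wild type arrays and differs for replicate 1, and its meaning is not stated. A block on it gives replicate 1 of each mutant a term of its own, so the changes equal those without both replicate 1 arrays. As a block, an alternative chosen after seeing the data, it left 1 of 8 genes called in EC-Rbpj-KO (Cldn5 at 1.32, adjusted p = 0.0254 from limma) and 0 in EC-N1ICD and in the difference. Over all tested genes it called 26 in EC-N1ICD and 18 in the difference. Signs then changed for Icam2 at -0.024 and Esam at -0.0093 in EC-N1ICD, for Jam3 at -0.032 in EC-Rbpj-KO, and, in the difference, for Jam3 at 0.20 and Tjp1 at 0.10. In EC-N1ICD, 0 of the 8 tested genes were called under every setting. In EC-Rbpj-KO the count was 2, and 3 with centred or quantile normalized arrays. It was 1 without a filter, with the mean of all probe sets, without trend, with the 4 arrays of the set only, with embryo sex in the fit and with the methods' t-test at its threshold, 0 with that t-test after Benjamini-Hochberg adjustment, and 1 to 3 when 1 array was left out. The sex term is set by 1 array, EC-Rbpj-KO replicate 1, so its EC-Rbpj-KO values equal those without that array. In EC-N1ICD, where sex and genotype coincide, that fit subtracts the gap between the 2 EC-Rbpj-KO arrays. Its EC-N1ICD values are therefore not changes corrected for sex. The difference between models called 0 of the 8 genes, but 1 (Cldn5) with centred or quantile normalized arrays or with sex in the fit, and 0 to 1 when 1 array was left out. Of all tested genes, EC-Rbpj-KO called 218 as higher and 323 as lower, against 375 and 300 with centred arrays and 357 and 303 with quantile normalized arrays. It called 541 in all, 147 without the second wild type array, and 1312 with the t-test at its threshold, of which 0 were left after adjustment. EC-N1ICD called 65, and 7 to 140 when 1 array was left out, 15 with sex in the fit, and 939 with the t-test at its threshold. The difference called 29, and 3 without trend to 80 without EC-Rbpj-KO replicate 2.

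Values that changed sign were all of genes not called. In EC-N1ICD these were Jam3 at -0.14 with the mean of all probe sets. With the sex term taken from the EC-Rbpj-KO arrays they were Icam2 at -0.74, Esam at -0.82, Jam3 at -0.60 and F11r at -0.093. In EC-Rbpj-KO they were F11r at 0.0083 with centred arrays, 0.024 with quantile normalized arrays and 0.17 with the mean of all probe sets, and Jam3 at -0.032 with sex in the fit. For Cdh5 the difference between models was -0.061 with centred arrays. When 1 array was left out, EC-N1ICD values ran from -0.41 to 0.20 for Cldn5, from -0.17 to 0.24 for Icam2, from -0.027 to 0.27 for Esam and from -0.016 to 0.30 for Jam3. EC-Rbpj-KO values ran from -0.032 to 0.71 for Jam3, from -0.19 to 0.061 for F11r and from -0.015 to 0.30 for Mcam, and differences from -0.21 to 0.26 for Cdh5, from -0.57 to 0.18 for Jam3 and from -0.19 to 0.035 for Tjp1. The causes were not tested. Low signals limit Pecam1 and Jam2, and replicate number limits all.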
